A study of Saccharomyces cerevisiae with 6 samples.

Results

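The table of transcript levels held 643 assembled transcripts among 7554 rows. They carry names that start with MSTRG, the default prefix that the StringTie assembler gives to merged transcripts that match no annotated one, and they were chosen by that prefix alone. A name has 2 numbers, the first for the assembled locus and the second for the transcript within it. By the first number the 643 transcripts fell into 451 loci. Of these, 380 loci had 1 listed transcript, and 71 had several, which held 263 transcripts. The study set a budding yeast strain with added DNA beside a strain without it. The strain yMH007 carried dChr, an artificial chromosome whose sequence stores data, and the strain yMH104, the control, held an empty plasmid. Both were grown in synthetic medium lacking uracil at 30 °C and harvested at an optical density between 1.0 and 1.2, and 3 libraries of total RNA were made from each. Whether the libraries of a strain came from separate cultures is not stated, so p-values measure the spread between these libraries.

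An assembler joins reads that overlap into transcript models and then divides the reads of a locus among the models found there. A model outside the annotation can be a transcript of its own, such as the antisense and intergenic RNAs that yeast makes from bidirectional promoters and that nuclear decay usually keeps low. It can also be an extended, shortened or merged form of a gene that is annotated. In yeast, where genes lie close together, reads of neighbours can run into a single model. The question of the study was whether artificial DNA is transcribed in yeast, and unannotated models are where such RNA could be listed. The table gives these models no coordinates and no sequence. Which chromosome a model lies on, dChr included, is therefore not known here, and names are all that identifies the members.

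Levels are TPM, transcripts per 1000000, which are scaled by length and to a common total within each library. Totals of the listed rows ran from 970077 to 992087 TPM, and the depth of the libraries is unknown, because TPM keeps none. URA3, the gene that medium without uracil selects for, was present in each library, between 35.2 and 48.0 TPM. The assembled transcripts took 34.9%, 24.6% and 29.9% of the TPM in dChr libraries 1, 2 and 3, against 29.5%, 34.6% and 20.3% in control libraries 1, 2 and 3. The strains overlapped: the mean share was 29.8% ± 5.14 for dChr libraries and 28.1% ± 7.26 for control libraries (SD, n = 3 each; exact permutation test, two-sided, p = 0.7, where 0.1 is the smallest p that 3 against 3 allows). The 10 highest assembled transcripts of a library held between 79.1% and 82.0% of its assembled TPM. Between 451 and 477 assembled transcripts reached 1 TPM in the dChr libraries and between 466 and 494 in the control libraries (exact permutation p = 0.2). Between 109 and 125 were listed at 0 in the dChr libraries and between 109 and 136 in the control libraries (exact permutation p = 1).

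Most members were low and a few were very high. The median of the mean level over the 6 libraries was 4.98 TPM for assembled transcripts and 6.17 TPM for the 6911 annotated ones. At the upper end, 15.6% of the assembled transcripts averaged 100 TPM or more, against 9.36% of the annotated ones, and 36 averaged 1000 TPM or more. Above 0 in all 6 libraries stood 65.6% of the assembled and 83.5% of the annotated transcripts. Listing of several transcripts went with high and uneven values. Transcripts of loci with several had a median of 15.1 TPM, and 48.3% of them were above 0 in all 6 libraries. Those alone in their locus had a median of 3.54 TPM, and 77.6% were above 0 in all 6. Alone means here that no other assembled transcript of the locus is listed. Unlisted or annotated transcripts may share the locus.

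Between the strains, 22 assembled transcripts rose and 41 fell in the dChr strain, of 571 that averaged at least 1 TPM and were tested (limma on log2(TPM + 1), Benjamini-Hochberg adjusted p under 0.05 over all 5938 tested transcripts). That is 11% of them, where 13.4% of all tested transcripts were called (4.19% higher and 9.16% lower), so the share is near the background. The other 72 members, of which 4 were at 0 in all 6 libraries, were too low to be tested. Of the tested members 97 averaged at least 1 TPM in a single strain and passed the level filter through that strain, and 10 of these were called. All 22 and all 41 called transcripts had libraries that did not overlap between the strains, which a call with 3 libraries per strain makes likely in itself. Over the tested members 25.9% did not overlap, against 34.1% of all tested transcripts. The median log2 fold change was -0.18 over the tested assembled transcripts and -0.04 over all tested transcripts. Falls ran from -0.38 to -2.06 on the log2 scale. Without dChr library 1 the counts were 13 higher and 22 lower, beside 113 and 282 over all transcripts. The falls were 23 without dChr library 3 and 22 without control library 2 or control library 3. Over all transcripts the falls in those fits were 307, 368 and 417 in that order, where the reported fit had 544. With all libraries scaled to the same annotated TPM, 15 were higher and 19 lower, beside 108 and 267 over all transcripts. With quantile normalization 31 assembled transcripts were higher and 40 lower, and over all transcripts the split became 555 higher and 561 lower, where the reported fit had 249 and 544.

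**Figure D1:**
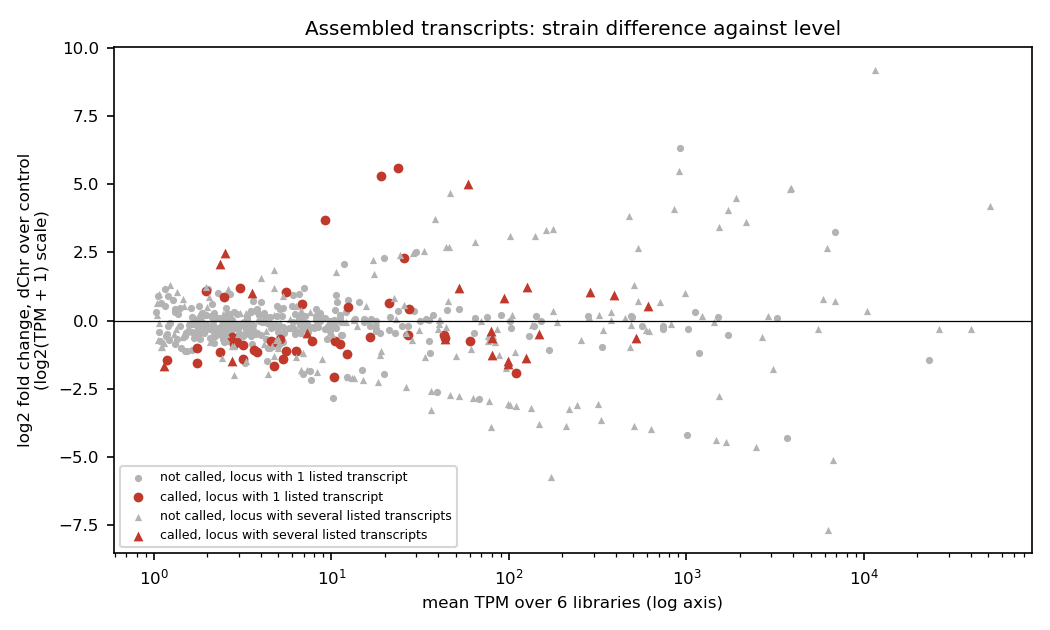
Log2 fold change of dChr over control (vertical axis, log2(TPM + 1) scale) against the mean TPM over the 6 libraries (horizontal log axis) for the 571 tested assembled transcripts. Red marks are the 63 called transcripts and grey marks the rest; circles stand for loci with 1 listed transcript and triangles for loci with several. The marks farthest from 0 at high levels are grey, and no called transcript averages 1000 TPM or more.

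The largest rises were transcripts that the control lacked or nearly lacked. MSTRG.2154.1 had 49.4, 49.2 and 43.9 TPM in the dChr libraries and 0 in each control library (limma adjusted p = 3.45e-06). MSTRG.2798.1 had 42.1, 36.0 and 36.7 TPM in the dChr libraries and was likewise listed at 0 throughout the control (limma adjusted p = 3.45e-06). Both were alone in their locus, kept their call in each of the 16 alternatives run, and stood near the level of URA3. Values of 0 in every control library add no spread, so these p-values do not measure the spread in the control.

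Locus MSTRG.6671 held a pair of transcripts that both rose. MSTRG.6671.1 had 113.9, 119.6 and 106.4 TPM in the dChr libraries, against 10.1, 1.08 and 0.956 TPM in the control libraries (limma adjusted p = 0.00481). Control library 1 lay about as far above the other controls as it lay below the dChr libraries on a log scale. MSTRG.6671.2 had 5.46, 2.09 and 7.60 TPM in the dChr libraries and 0 in each control library (limma adjusted p = 0.00887). Added up, the locus had 119.3, 121.6 and 114.0 TPM in the dChr libraries, against 10.1, 1.08 and 0.956 TPM in the control libraries (log2 fold change 5.07 ± 0.60 SE, limma adjusted p = 0.00158). The standard deviation between the dChr libraries was 3.94 TPM for the sum and 6.61 TPM for MSTRG.6671.1.

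Other rises were smaller or rested on fewer libraries. MSTRG.5899.1 had 6.24, 43.4 and 5.51 TPM in the dChr libraries and was listed at 0 in the control, so dChr library 2 stood far above the others of its strain. The call (limma adjusted p = 0.0199) did not hold when any of the control libraries was left out, at 0.0570 to 0.0630, or with a pseudocount of 5, at 0.0917. MSTRG.2996.1 had 54.1, 26.4 and 49.1 TPM in the dChr libraries against 5.74, 9.80 and 7.80 TPM in the control libraries (log2 fold change 2.30 ± 0.30 SE, limma adjusted p = 0.00497). MSTRG.4607.8 had 7.31, 3.37 and 2.66 TPM in the dChr libraries against 0, 0 and 0.734 TPM in the control libraries. It passed the level filter through the dChr strain alone. The limma adjusted p of 0.0163 became 0.0506 without control library 1 and 0.0538 without control library 2. With a replicate block it was 0.0541.

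The remaining large rises had log2 fold changes of 1.05 to 1.23 on the log2(TPM + 1) scale. MSTRG.336.1 had 8.26, 7.78 and 7.28 TPM in the dChr libraries against 2.51, 4.44 and 2.96 TPM in the control libraries (limma adjusted p = 0.0133, and 0.0591 without dChr library 1). MSTRG.5684.2 had 4.99, 3.84 and 5.14 TPM in the dChr libraries against 1.77, 1.74 and 0.954 TPM in the control libraries (limma adjusted p = 0.0119, and 0.0545 and 0.0509 without dChr libraries 1 and 3). MSTRG.369.1 had 2.40, 3.87 and 2.80 TPM in the dChr libraries against 0.421, 1.25 and 1.08 TPM in the control libraries. With a control mean of 0.915 TPM, it passed the level filter through the dChr strain alone. Its call (limma adjusted p = 0.0354) was lost without any single library other than control library 2, at 0.0686 to 0.113. MSTRG.1366.1 and MSTRG.1366.2, the last of the 12 largest rises, belong to a locus described below.

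**Figure D2:**
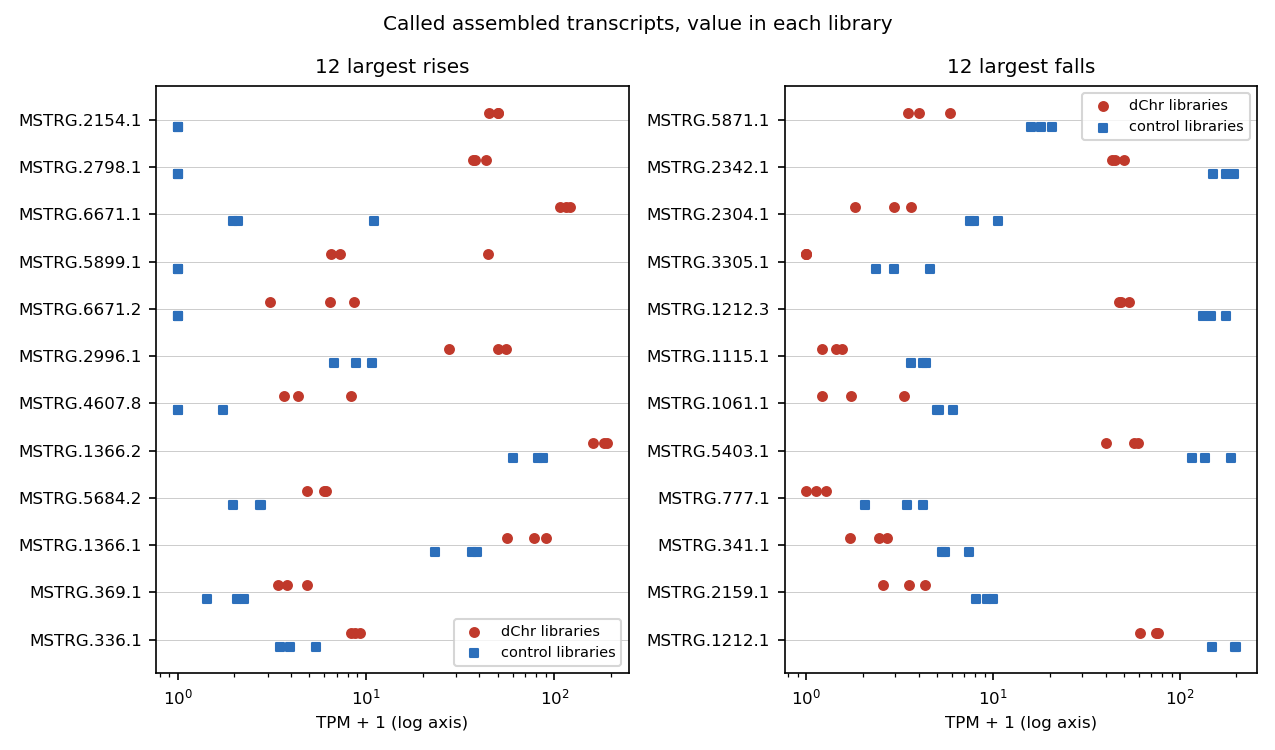
TPM + 1 in each library (horizontal log axis) for the 12 largest rises and the 12 largest falls among called assembled transcripts, with red circles for dChr libraries and blue squares for control libraries; a value of 1 stands for a listed 0. In each row the strains do not overlap, and MSTRG.2154.1 and MSTRG.2798.1 are at 0 in the 3 control libraries.

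Falls were smaller in size and often seen at low levels. The median of the mean level was 7.28 TPM for the 41 transcripts that fell and 20.2 TPM for the 22 that rose. MSTRG.2342.1, alone in its locus, had 42.3, 48.8 and 43.7 TPM in the dChr libraries against 175.7, 193 and 149.8 TPM in the control libraries (log2 fold change -1.92 ± 0.12 SE, limma adjusted p = 0.000355). MSTRG.5871.1 had 2.50, 4.85 and 3.03 TPM in the dChr libraries against 19.7, 17.1 and 14.9 TPM in the control libraries, the largest fall at -2.06 ± 0.21 SE (limma adjusted p = 0.00207). Both kept their call in each of the 16 alternatives run.

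Locus MSTRG.1212 gave 2 of the largest falls. MSTRG.1212.3 had 46.0, 52.4 and 47.0 TPM in the dChr libraries against 145.4, 174.9 and 130.7 TPM in the control libraries (log2 fold change -1.60 ± 0.13 SE, limma adjusted p = 0.000849). MSTRG.1212.1 had 75.5, 73.1 and 60.1 TPM in the dChr libraries against 196.8, 196.2 and 147.9 TPM in the control libraries (log2 fold change -1.36 ± 0.15 SE, limma adjusted p = 0.00266). MSTRG.5403.1, also in a locus with several transcripts, had 58.3, 39.3 and 55.3 TPM in the dChr libraries against 135.1, 186.8 and 115.0 TPM in the control libraries (limma adjusted p = 0.00791).

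The other large falls were of transcripts below 10 TPM in each library. MSTRG.2304.1 had 1.93, 2.64 and 0.822 TPM in the dChr libraries against 9.65, 6.50 and 6.90 TPM in the control libraries (limma adjusted p = 0.0124). MSTRG.2159.1 had 1.59, 3.31 and 2.53 TPM in the dChr libraries against 9.01, 8.31 and 7.11 TPM in the control libraries (limma adjusted p = 0.00756). MSTRG.341.1 had 0.715, 1.46 and 1.69 TPM in the dChr libraries against 6.43, 4.35 and 4.52 TPM in the control libraries (limma adjusted p = 0.0111). These 3 kept their call without any single library.

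At the low end, several transcripts passed the level filter through the control alone. MSTRG.1115.1 had 0.209, 0.553 and 0.438 TPM in the dChr libraries against 2.63, 3.22 and 3.37 TPM in the control libraries (limma adjusted p = 0.0045). MSTRG.777.1 had 0.126, 0.271 and 0 TPM in the dChr libraries against 3.19, 2.45 and 1.06 TPM in the control libraries. The limma adjusted p of 0.0288 became 0.0621 to 0.0888 without any single dChr library. MSTRG.3305.1 was listed at 0 in the 3 dChr libraries and had 1.35, 3.57 and 1.93 TPM in the control libraries (limma adjusted p = 0.0147). A TPM filter near these values had to pass them through the strain where they are high. With MSTRG.3305.1, 5 assembled transcripts reached 1 TPM in each library of a strain and were listed at 0 in the other strain. The other 4, all in the dChr strain, were MSTRG.2154.1, MSTRG.2798.1, MSTRG.5899.1 and MSTRG.6671.2. These 4 passed the level filter through the dChr strain alone, as did MSTRG.4607.8 and MSTRG.369.1. For the 5 listed at 0 throughout a strain, p-values do not measure the spread in that strain. Annotated transcripts of this kind were not counted, so the 5 have no background share to be set against.

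Transcripts that share a locus with others were much less steady between libraries of a strain. The median within-strain standard deviation of log2(TPM + 1) was 0.88 for the 230 tested transcripts of loci with several, 0.30 for the 341 tested transcripts alone in their locus and 0.17 for the 5367 tested annotated transcripts. A difference of 4-fold or more in TPM + 1 between libraries of a strain was seen in 120 of the 230 (52.2%), 56 of the 341 (16.4%) and 96 of the annotated transcripts (1.79%). When the listed transcripts of a locus were added up, the median standard deviation of the 71 loci was 0.35, and 15 of them (21.1%) had such a difference. The coefficient of variation over the 6 libraries was lower for the sum than for the median transcript of the locus in 67 of the 71 loci. Its median was 0.341 for the sums and 0.840 for the median transcripts. Adding up values that vary separately lowers such a spread in itself, most where many are listed at 0. The steadier sums are therefore a description. Annotated transcripts that carry their own names are not part of these sums, whether or not they overlap a locus.

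**Figure D3:**
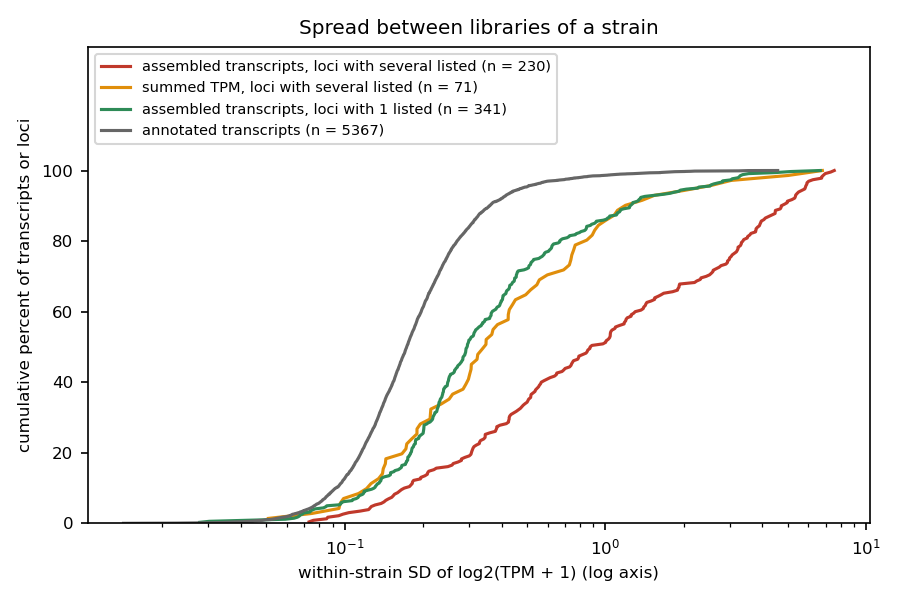
Cumulative percent of transcripts or loci (vertical axis) by the within-strain standard deviation of log2(TPM + 1) (horizontal log axis), for assembled transcripts of loci with several listed transcripts, the summed TPM of those loci, assembled transcripts alone in their locus, and annotated transcripts. The curve of the sums, with a median of 0.35, runs near that of transcripts alone in their locus, with a median of 0.30, while the single transcripts of loci with several reach a median of 0.88.

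Summed per locus, 17 loci rose and 36 fell of 412 tested (12.9%). In this fit, which holds the sums beside the annotated transcripts, 14.4% of all 5779 features were called (4.46% higher and 9.92% lower). In 129 of the 412 loci (31.3%) each dChr library lay on the same side of all control libraries, against 34.7% of all features. Of the 341 tested loci with 1 listed transcript 12 rose and 30 fell (12.3%), with a median log2 fold change of -0.19. Of the 71 loci with several 5 rose and 6 fell (15.5%), with a median of -0.15, beside -0.04 over all features of the fit. Taken singly, the transcripts of loci with several were called in 9.57% of 230 tests. Without control library 2 the loci called lower were 23. In the fit per transcript the falls over all transcripts were then 368, beside 544 with all libraries. Of the 53 called loci, 29 kept their call without any single library, and of the 63 called transcripts 24 did. Of the 16 loci with several transcripts that held a called transcript, 10 were also called as a sum, and no locus held called transcripts of both directions.

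The 5 loci with several transcripts that rose as a sum differed in how they were built. MSTRG.6671 is given above. MSTRG.1366, with 7 listed transcripts, had 2954, 3346 and 2629 TPM in the dChr libraries against 1619, 1455 and 1070 TPM in the control libraries (log2 fold change 1.12 ± 0.18 SE, limma adjusted p = 0.00534). Transcripts MSTRG.1366.1, MSTRG.1366.2, MSTRG.1366.3 and MSTRG.1366.4 rose singly. MSTRG.1366.2 had 158.6, 183.2 and 189.4 TPM in the dChr libraries against 86.2, 80.9 and 59.1 TPM in the control libraries (limma adjusted p = 0.00475). MSTRG.1366.1 had 76.95, 88.8 and 54.8 TPM in the dChr libraries against 35.4, 37.7 and 22.2 TPM in the control libraries. For it the limma adjusted p of 0.0265 became 0.0507 to 0.0902 without dChr library 1 or 2 or control library 1 or 3, and 0.0529 with the libraries scaled to the same annotated TPM.

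The other 3 transcripts of locus MSTRG.1366, among them the most abundant, MSTRG.1366.5, were not called. MSTRG.1366.5 had 1461, 1716 and 766 TPM in the dChr libraries against 775, 676 and 456 TPM in the control libraries (limma adjusted p = 0.111). MSTRG.1366.6 had 586, 642 and 137 TPM in the dChr libraries against 312, 317 and 267 TPM in the control libraries. MSTRG.1366.7 had 971 TPM in dChr library 3 and was listed at 0 in the other 5 libraries. The low values of MSTRG.1366.5 and MSTRG.1366.6 and the single value of MSTRG.1366.7 thus fell in the same library, whose sum was 2629 TPM. When transcripts listed at 0 somewhere and reaching 100 TPM elsewhere were left out, which removes MSTRG.1366.7, the limma adjusted p of the locus was 0.0661.

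MSTRG.6599 had 462, 489 and 369 TPM in the dChr libraries against 198, 270.5 and 267 TPM in the control libraries (log2 fold change 0.85 ± 0.16 SE, limma adjusted p = 0.0115). Its transcript MSTRG.6599.7 rose singly, at 416, 408 and 331 TPM in the dChr libraries against 198, 204.5 and 157 TPM in the control libraries. MSTRG.1001 had 6.78, 6.12 and 6.77 TPM in the dChr libraries against 2.03, 1.89 and 2.70 TPM in the control libraries (limma adjusted p = 0.00169). MSTRG.4468 had 671, 835 and 692 TPM in the dChr libraries against 419, 545 and 529 TPM in the control libraries. The limma adjusted p of 0.0343 became 0.0596 to 0.109 without any single library other than control library 2, and 0.0759 with the libraries scaled to the same annotated TPM. With no filter it was 0.0562, and with no trend 0.0555. With the mean of the log2 values in place of the sum, MSTRG.6599 and MSTRG.4468 were not called (limma adjusted p = 0.351 and 0.148).

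Among the 6 loci with several transcripts that fell as a sum, MSTRG.3305 was listed at 0 in the 3 dChr libraries. Its sum was 2.81, 3.95 and 3.04 TPM in the control libraries (limma adjusted p = 0.000552), and neither of its transcripts had a value above 0 in the dChr strain. The locus passed the level filter through the control alone, and its p-value does not measure the spread in the dChr strain. MSTRG.5403 had 60.4, 71.5 and 57.5 TPM in the dChr libraries against 195.2, 195.9 and 121.4 TPM in the control libraries (log2 fold change -1.39 ± 0.19 SE, limma adjusted p = 0.00308, and 0.118 with the mean of the log2 values). Its second transcript, MSTRG.5403.2, had 2.09, 32.2 and 2.21 TPM in the dChr libraries against 60.1, 9.14 and 6.39 TPM in the control libraries. It was the library with the highest value of MSTRG.5403.2 in the dChr strain that had the lowest value of MSTRG.5403.1, at 39.3 TPM.

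MSTRG.2613 and MSTRG.112 fell by less, with little spread. MSTRG.2613 had 95.1, 99.8 and 90.5 TPM in the dChr libraries against 146.5, 171.9 and 137.7 TPM in the control libraries (limma adjusted p = 0.00581, and 0.0622 with the libraries scaled to the same annotated TPM). Both of its transcripts fell singly. MSTRG.112 had 7.24, 7.52 and 7.02 TPM in the dChr libraries against 12.9, 12.5 and 11.9 TPM in the control libraries (limma adjusted p = 0.00392). MSTRG.3553 had 1447, 1483 and 1458 TPM in the dChr libraries against 1830, 2252 and 1902 TPM in the control libraries. The limma adjusted p of 0.0421 became 0.0641 to 0.137 without any single library other than control library 1, and was 0.275 with the libraries scaled to the same annotated TPM. With no filter it was 0.0559, and with no trend 0.0535.

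Among loci with several listed transcripts, MSTRG.1322 was the only one called as a sum with no called transcript. Its sum was 41.4, 41.7 and 191.7 TPM in the dChr libraries against 330.2, 448.3 and 321 TPM in the control libraries (log2 fold change -2.37 ± 0.54 SE, limma adjusted p = 0.0250). The strains did not overlap, but dChr library 3 stood apart from the other dChr libraries. That library was the only one of its strain with a value of MSTRG.1322.1, 155 TPM, against 280, 388 and 207 TPM in the control libraries. MSTRG.1322.5 was steady at 41.4, 41.7 and 36.6 TPM in the dChr libraries against 50.4, 60.5 and 33.8 TPM in the control libraries. The call of the locus was lost without any single library other than dChr library 3 (limma adjusted p = 0.0595 to 0.0906), and was lost without MSTRG.1322.1 and other transcripts listed at 0 somewhere and reaching 100 TPM elsewhere (0.0872). With no filter the limma adjusted p of the locus was 0.0592.

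In 6 loci a transcript was called and the sum was not. In MSTRG.1212 the sum was 398.5, 125.5 and 107.2 TPM in the dChr libraries against 342, 371 and 278.5 TPM in the control libraries (limma adjusted p = 0.231). The third transcript, MSTRG.1212.5, had 277 TPM in dChr library 1 and was listed at 0 in the other 5 libraries. Without dChr library 1 the sum of the locus was called lower (log2 fold change -1.49, limma adjusted p = 0.00165), as it was without MSTRG.1212.5 (log2 fold change -1.47, limma adjusted p = 0.000266). In MSTRG.5159 the sum was 301, 132.5 and 121 TPM in the dChr libraries against 844, 807 and 163 TPM in the control libraries. MSTRG.5159.1, which fell, had 124.9, 125.3 and 115.8 TPM in the dChr libraries against 176.7, 186.7 and 156 TPM in the control libraries (limma adjusted p = 0.0184). MSTRG.5159.2 added 4.31, 7.21 and 5.23 TPM in the dChr libraries against 6.33, 9.76 and 7.30 TPM in the control libraries. The other 3 transcripts each had a value in a single library, MSTRG.5159.4 with 172 TPM in dChr library 1, MSTRG.5159.6 with 661 TPM in control library 1 and MSTRG.5159.5 with 610.5 TPM in control library 2. The sum was not called (limma adjusted p = 0.172) and was called lower without these 3 transcripts (log2 fold change -0.50, limma adjusted p = 0.0134) or without control library 3 (limma adjusted p = 0.0114).

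In MSTRG.2969 the sum was 73.3, 77.1 and 68.4 TPM in the dChr libraries against 84.4, 97.7 and 89 TPM in the control libraries. The strains did not overlap, and the limma adjusted p was 0.0776 in the reported fit, 0.0293 with median-ratio scaling, 0.0364 with quantile normalization and 0.0444 with a replicate block. MSTRG.4607, with 15 listed transcripts, had a sum of 33.0, 43.3 and 33.1 TPM in the dChr libraries against 25.3, 49.4 and 39.3 TPM in the control libraries (limma adjusted p = 0.973), while MSTRG.4607.8 was called higher. MSTRG.4696, with 11, had 2103, 1463 and 2103 TPM in the dChr libraries against 3143, 2022 and 2022 TPM in the control libraries (limma adjusted p = 0.376). In it MSTRG.4696.5 fell, at 41.4, 54.4 and 44.8 TPM in the dChr libraries against 87.9, 138.7 and 116.9 TPM in the control libraries; it lies outside the rule for named transcripts and was chosen after its values were seen.

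**Figure D4:**
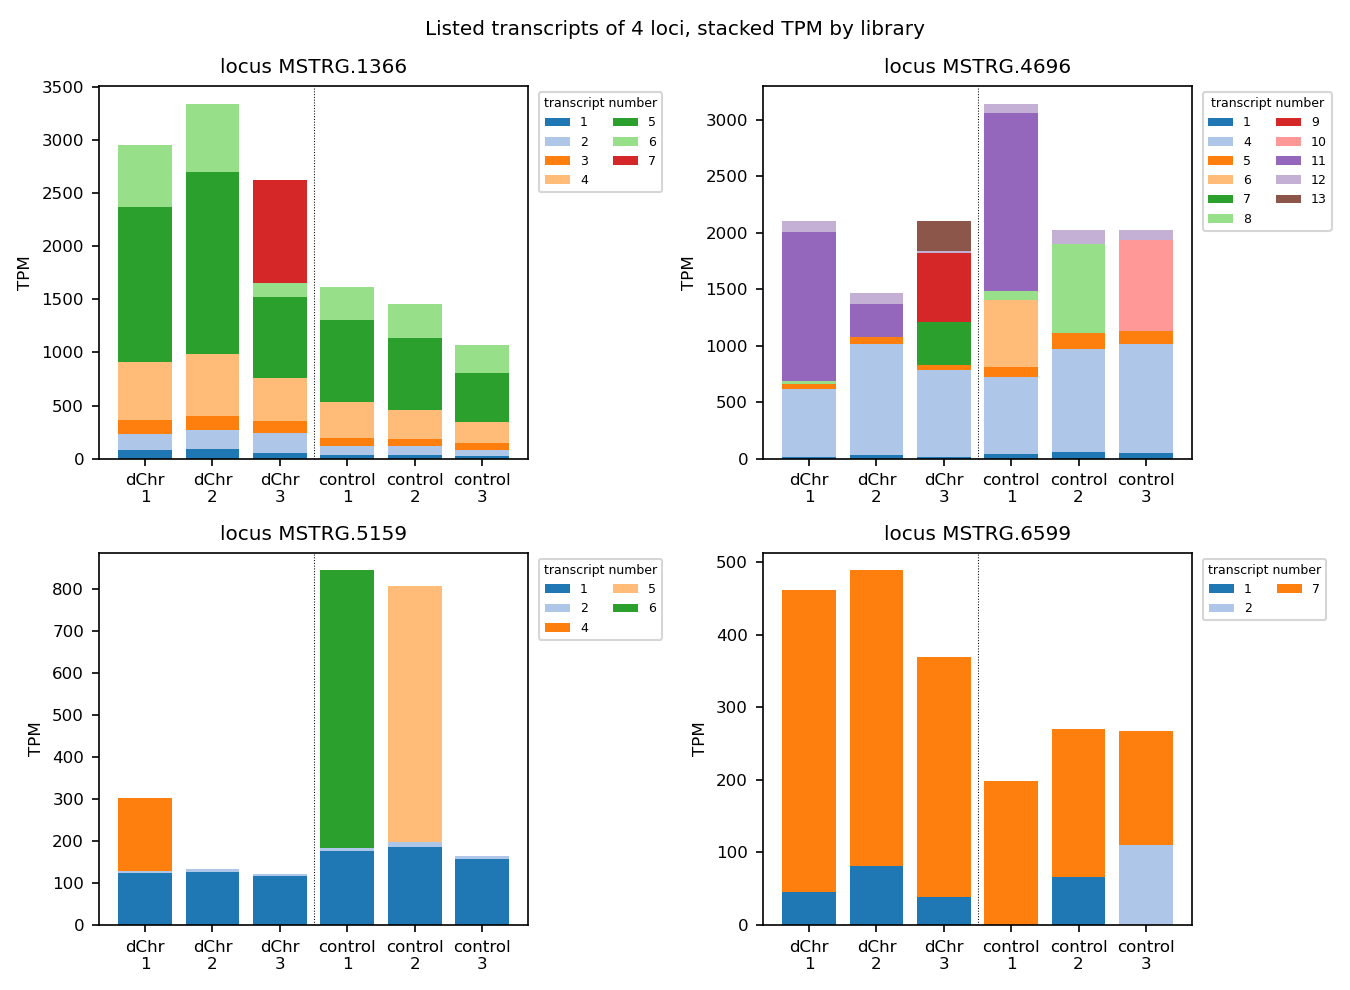
Stacked TPM (vertical axis) of the listed transcripts of loci MSTRG.1366, MSTRG.4696, MSTRG.5159 and MSTRG.6599 in each of the 3 dChr libraries (left of the dotted line) and the 3 control libraries (right), with a colour for each transcript number. In MSTRG.5159 a steady base, transcript MSTRG.5159.1, lies between 116 and 187 TPM, while transcripts MSTRG.5159.4, MSTRG.5159.5 and MSTRG.5159.6 each appear in a single library.

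The locus with most listed transcripts was MSTRG.1061, with 30, all at low levels. Its sum was 97.3, 121.8 and 104.6 TPM in the dChr libraries against 138.4, 134.4 and 119.3 TPM in the control libraries (limma adjusted p = 0.153). MSTRG.1061.1 fell, at 0.732, 2.34 and 0.210 TPM in the dChr libraries against 4.10, 5.08 and 3.98 TPM in the control libraries. This call (limma adjusted p = 0.0455) was lost without any single library other than dChr library 2, at 0.0920 to 0.132, and with the libraries scaled to the same annotated TPM, at 0.0594. It was also lost with a pseudocount of 0.1, no filter and no trend (limma adjusted p = 0.0739, 0.0668 and 0.0507). MSTRG.4045, with 10 listed transcripts, had a sum of 37.4, 38.0 and 27.6 TPM in the dChr libraries against 39.7, 45.8 and 28.1 TPM in the control libraries (limma adjusted p = 0.735).

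Whether transcripts of a locus changed unequally was tested by the log2 ratio of each to the others of its locus. Of 221 such tests limma called 0 (0% of the tests, the smallest adjusted p being 0.766), and 10 had an unadjusted p under 0.05. The smallest p belonged to MSTRG.4607.8, with a log2 ratio higher by 2.29 ± 0.60 SE in the dChr strain. Next came MSTRG.2676.1, which had 4.17, 1.40 and 2.81 TPM in the dChr libraries against 5.39, 6.72 and 4.53 TPM in the control libraries. MSTRG.4801.5 had 0, 196.9 and 84.0 TPM in the dChr libraries and 0 in each control library. MSTRG.4607.13 had 10.3, 4.29 and 7.78 TPM in the dChr libraries against 0, 5.18 and 0.823 TPM in the control libraries. MSTRG.3552.7, MSTRG.3406.1, MSTRG.6671.1 and MSTRG.1322.5 completed the 8 smallest p. The median within-strain standard deviation of these ratios was 1.20 on the log2 scale, and differences well above it were also not called, such as 5.64 ± 2.17 SE for MSTRG.1322.5 and 5.68 ± 1.80 SE for MSTRG.4801.5. Without dChr library 3, 2 ratios were called, among them that of MSTRG.1322.5 (limma adjusted p = 0.00166), and without control library 2, 1 was called.

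A group of 69 assembled transcripts (10.7%) was listed at 0 somewhere among the 6 libraries and reached 100 TPM elsewhere. Of the 6911 annotated transcripts 1 did. In each of the 69 this happened between libraries of the same strain. Loci with several transcripts held 62 of them, spread over 24 loci, and 37 of the 69 were above 0 in a single library. Limma called 0 of them (3 at an unadjusted p under 0.05), and 2 had libraries that did not overlap between the strains, beside 34.1% of all tested transcripts. They were chosen for a wide difference, which lay within a strain in all 69. That choice makes calls and separate strains unlikely, so these counts are no further result about the 69. They held 19.0%, 7.99% and 16.7% of the TPM in the dChr libraries against 16.4%, 15.7% and 2.06% in the control libraries. Without them the assembled transcripts took 15.2% ± 1.81 of the TPM of dChr libraries and 16.8% ± 3.12 of that of control libraries (SD, n = 3 each; exact permutation p = 0.5).

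The highest assembled values were in this group or beside it. Of 36 assembled transcripts that averaged 1000 TPM or more, 26 had a difference of 4-fold or more between libraries of a strain, against 12 of 88 annotated transcripts at that level, and limma called none of the 36 (2 at an unadjusted p under 0.05). MSTRG.2570.1 had 94669, 6519 and 52047 TPM in the dChr libraries against 105029, 50478 and 0 TPM in the control libraries. MSTRG.5874.4 had 17467, 14333 and 16369 TPM in the dChr libraries against 0, 21144 and 0 TPM in the control libraries (limma adjusted p = 0.170). Without control library 2 it was called higher (limma adjusted p = 1.02e-06), so that library decided the call. MSTRG.2998.1, alone in its locus, had 37073, 552 and 1984 TPM in the dChr libraries against 824, 74.4 and 758 TPM in the control libraries. MSTRG.3136.2 had 1586, 27264 and 24834 TPM in the dChr libraries against 24062, 37218 and 25087 TPM in the control libraries.

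Some of the highest transcripts were steady. MSTRG.4222.17 had 35162, 42789 and 29594 TPM in the dChr libraries against 36735, 49968 and 46202 TPM in the control libraries (limma adjusted p = 0.387). MSTRG.4222.7, of the same locus, had 28551, 27058 and 16265 TPM in the dChr libraries against 25868, 30612 and 30648 TPM in the control libraries (limma adjusted p = 0.460). MSTRG.3353.1 had 9674, 9587 and 15381 TPM in the dChr libraries against 6110, 10390 and 10864 TPM in the control libraries (limma adjusted p = 0.490). Strains overlapped in all 3. Together loci MSTRG.4222, MSTRG.2570, MSTRG.4275 and MSTRG.2374 held 62.0% of all assembled TPM.

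In loci MSTRG.4275 and MSTRG.2374 different transcripts were high in different libraries. The sum of MSTRG.4275, with 9 listed transcripts, was 26362, 5766 and 84111 TPM in the dChr libraries against 17804, 4583 and 11126 TPM in the control libraries (limma adjusted p = 0.416). MSTRG.4275.1 had 37081 TPM in dChr library 3 and 148 TPM in control library 1, and was listed at 0 in the others. MSTRG.4275.2 had 63.3, 0 and 12542 TPM in the dChr libraries against 0, 442 and 0 TPM in the control libraries. MSTRG.4275.6 had 19534, 0 and 0 TPM in the dChr libraries against 7645, 3051 and 7303 TPM in the control libraries. MSTRG.4275.7 had 0, 1919 and 31204 TPM in the dChr libraries against 5056, 0 and 2761 TPM in the control libraries. Without dChr library 1 MSTRG.4275.6 was called lower (limma adjusted p = 0.000182). In MSTRG.2374 the transcripts MSTRG.2374.3 and MSTRG.2374.12 had 23424 and 22948 TPM in dChr library 2, MSTRG.2374.7 had 11421 TPM in dChr library 1 and MSTRG.2374.9 had 40150 TPM in control library 2, each listed at 0 in the other 5 libraries. MSTRG.468.1 had 14872 TPM in control library 2 and 0 in the others.

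For each of the 69 transcripts, the annotated transcript was found whose TPM, added to its own, varied least over the 6 libraries, among 194 annotated transcripts that themselves differed at least 4-fold in TPM + 1. This is a description over 6 libraries, chosen by the values, and it does not identify the assembled transcript. The median coefficient of variation was 2.45 for the assembled transcripts, 0.421 for the annotated transcripts found and 0.304 for the sums. A sum with a larger and steadier transcript varies less than the assembled transcript by construction, so the annotated transcript alone is given beside it. The sum varied less than the annotated transcript alone in 49 of the 69, and in the other 20 it did not. Taking the steadiest of 194 sums favours a low value, so the 49 are not a test of a complementary pattern. The sum was below 0.1 for 5 of the 69 and below 0.2 for 17. The annotated transcripts found were 20 in number, so several assembled transcripts shared one.

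The 4 pairs with the lowest values are given as a description. They were picked by the steadiness of their sums, so level sums are built into the choice. MSTRG.3208.1, alone in its locus, had 14157, 0 and 0 TPM in the dChr libraries against 5933, 2035 and 7.77 TPM in the control libraries. ENO2, which encodes an enolase of glycolysis, had 411, 14216 and 14487 TPM in the dChr libraries against 7209, 12758 and 14425 TPM in the control libraries. Their sum lay between 13142 and 14794 TPM in all 6 libraries, a coefficient of variation of 0.0410, where the next best annotated transcript gave 0.454. Each library that was low in ENO2 was high in MSTRG.3208.1.

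The other 3 pairs were chosen after their values were seen. MSTRG.468.3 had 1981 TPM in control library 2 and 0 elsewhere. PGI1, which encodes the glycolytic enzyme phosphoglucose isomerase, had 684 TPM in that library and between 2645 and 2811 TPM in the other 5. The sum had a coefficient of variation of 0.0235, where the next best annotated transcript gave 0.375. MSTRG.4696.9 had 607 TPM in dChr library 3 and 0 elsewhere, and PGK1, which encodes phosphoglycerate kinase of glycolysis, had 151 TPM in that library and between 787 and 924 TPM in the others.

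The last of these pairs differed in that the assembled transcript held most of the sum. MSTRG.6535.4 had 959, 2171 and 2191 TPM in the dChr libraries against 0, 1933 and 1936 TPM in the control libraries. In the same locus MSTRG.6535.3 had 3041 TPM in control library 1, where MSTRG.6535.4 was listed at 0. MSTRG.6535.1 had 3787 TPM in control library 3. Both of these were listed at 0 elsewhere and are not part of the pair. NCE102, which encodes a plasma membrane protein of eisosomes, had 1100.5, 77.6 and 21.7 TPM in the dChr libraries against 1778, 16.8 and 17.3 TPM in the control libraries. The sum of the pair had a coefficient of variation of 0.0874, where NCE102 alone had 1.51. On the R64 reference ENO2 is at chromosome VIII 451327 to 452640, PGI1 at chromosome II 612236 to 613900, PGK1 at chromosome III 137746 to 138996 and NCE102 at chromosome XVI 829918 to 830439. The positions of the 4 assembled transcripts are not known here, and the pairs do not give them. Transcripts of a single locus were paired with genes of different chromosomes. MSTRG.468.3 went with PGI1, while MSTRG.468.1 went with snR7-S on chromosome VII.

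**Figure D5:**
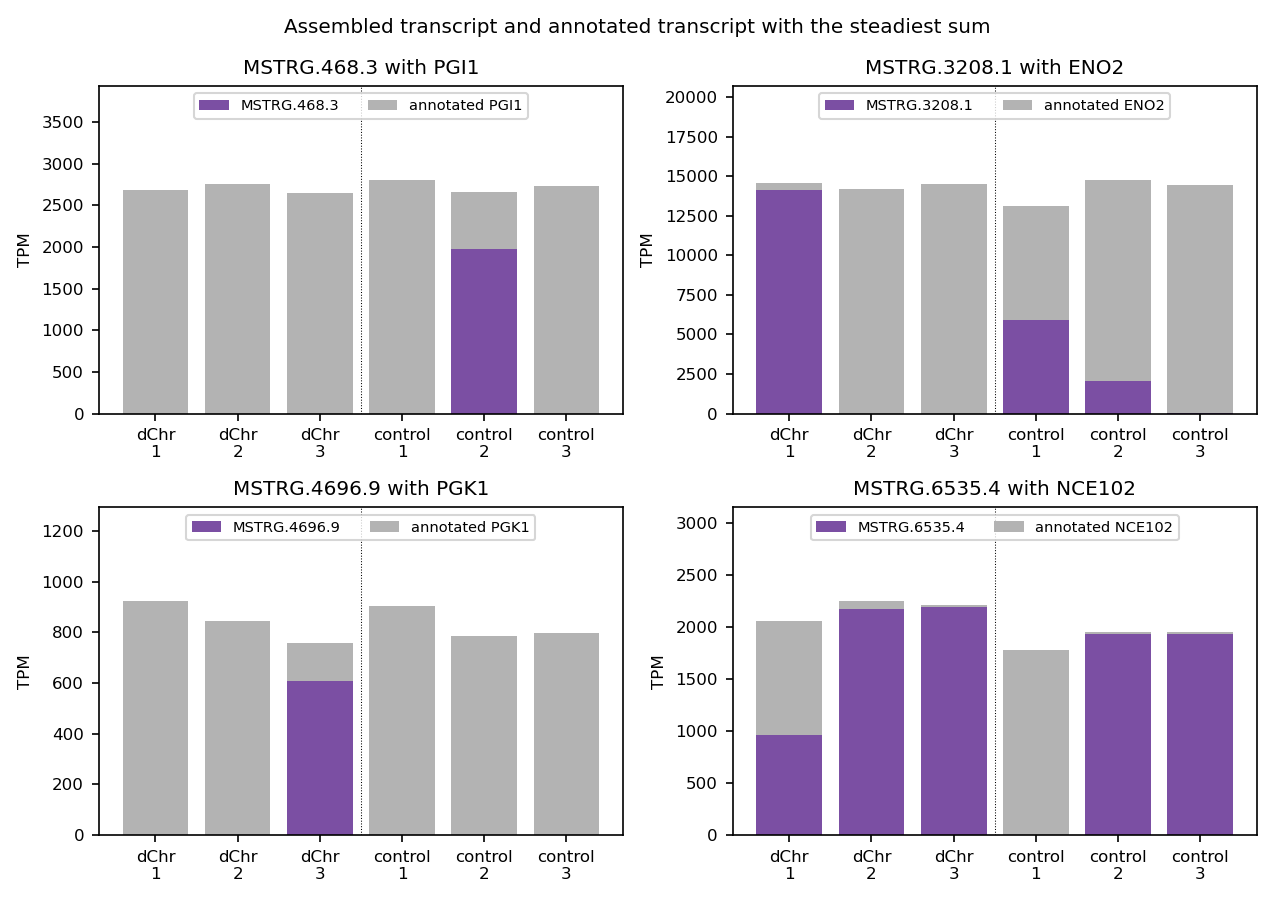
Stacked TPM (vertical axis) of an assembled transcript (purple) and the annotated transcript whose sum with it varied least (grey), in the 3 dChr libraries (left of the dotted line) and the 3 control libraries (right), for the 4 pairs with the steadiest sums. The pairs were picked for steady sums, so the height of the bars is nearly level by choice, with coefficients of variation from 0.0235 to 0.0874. The purple part is at or near 0 in some libraries of each panel.

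For the other high transcripts of this group the sums varied more, and for several there was no complementary pattern. With MSTRG.4275.6 and MSTRG.2374.7 the steadiest sum was also with ENO2, at coefficients of variation of 0.190 and 0.224, where ENO2 alone had 0.539. TDH3, which encodes a glyceraldehyde-3-phosphate dehydrogenase of glycolysis, had 0.650 alone. Its sum was below that with MSTRG.5874.4, at 0.304, and above it with MSTRG.2374.9, at 0.686. The spliceosomal RNA listed as snR7-S had 0.469 alone. Its sum was below that with MSTRG.468.1, at 0.165, and above it with MSTRG.4275.7, MSTRG.2374.3, MSTRG.2374.12 and MSTRG.4275.2, at 0.822, 0.857, 0.849 and 0.580. With MSTRG.4275.1 the steadiest sum was with snR17a, a small nucleolar RNA, at 0.899, against 1.20 for snR17a alone. With MSTRG.2570.1 it was with SCR1, the RNA of the signal recognition particle, at 0.509, against 1.45 for SCR1 alone. These values are a description, and no pairing is drawn from them.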

How the data were processed

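The authors deposited 1 table of TPM, with a column for each of the 6 libraries. The tools named per the submitters' processing notes are HISAT2 2.0.5, StringTie 2.0, cutadapt 2.6, R 3.6.0 and DESeq2, and the build is sacCer3. What each tool did, whether reads were counted by strand, any filters and the read depth: not given in the sources used here. Since TPM keeps no read counts, count models and counting intervals were not used. An assembler's division of reads within a locus can move TPM between transcripts of that locus, and reads of overlapping genes and near-identical copies cannot be told apart.

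Values were analysed as log2(TPM + 1). Fold changes on this scale understate changes of low transcripts. Transcripts averaging at least 1 TPM were fitted with limma 3.58.1 under R 4.3.3 (eBayes, trend on the mean level, no term for replicate number), over the whole table. Two-sided tests of dChr over control were adjusted by Benjamini-Hochberg, and the threshold was 0.05. Locus sums replaced the assembled transcripts in a second fit. In another fit, the log2 ratio of a transcript to the others of its locus was the response, with 1 test for a locus with 2 transcripts. The fits were run on simulated data to check the code. Those for loci and ratios used a spread well below the real one, so they do not show how many real changes would be called. Named transcripts are the 12 largest rises and falls, the 8 largest per direction of called loci with several transcripts, those detected in a single strain (at least 1 TPM in its 3 libraries and 0 in the others), the 10 highest by mean, the 5 loci with most transcripts, the 12 highest of those listed at 0 somewhere and reaching 100 TPM elsewhere, the 8 smallest p of the ratio test, and up to 5 loci where sum and transcript calls differ in each way. The members and rules were chosen with earlier results of these data known. Gene names and positions came from a RefSeq annotation of the R64 assembly. The replicate numbers are not stated to mark shared days, so the replicate block is an alternative. Other alternatives were pseudocounts of 0.1 and 5, no filter and a mean of at least 10 TPM, 3 other scalings, no trend and leaving out each library. Python 3.11.15 served for the rest, with numpy 2.4.6, pandas 2.3.3, scipy 1.17.1 and matplotlib 3.10.9.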

Additional observations from a re-analysis of the deposited data

How the results depend on the processing

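No called assembled transcript or locus changed direction under any alternative in which it was tested. With a mean of at least 10 TPM, which tests fewer transcripts, 13 assembled transcripts were higher and 22 lower, and 17 loci were lower. Over all transcripts 231 were then higher and 422 lower. With libraries scaled to the same annotated TPM 19 transcripts were lower, all among the 41 reported, beside 267 over all transcripts. With quantile normalization 26 loci were higher, 17 of them reported. Over all transcripts 555 were then higher, where the reported fit had 249. The cause was not tested. Counts over all features of the locus fit are not given for the alternatives, so locus counts under them have no background share. Fits without a library, with fewer samples each, gave 13 to 22 transcripts higher and 22 to 31 lower, 13 to 20 loci higher and 23 to 32 lower, and 0 to 2 called ratios within loci. Over all transcripts these fits gave 113 to 262 higher and 282 to 417 lower, beside 249 and 544 in the reported fit. The difference in the share of TPM in assembled transcripts was 1.64 percentage points, and lay between -2.29 and 4.86 without any single library. Requiring 5 TPM left 3 of the 5 transcripts detected in a single strain. With a replicate block 21 transcripts rose and 33 fell (268 and 566 over all transcripts), 20 loci rose and 44 fell, and 0 ratios were called. Same-numbered libraries correlated, after subtraction of strain means, at 0.09, -0.08 and 0.12, so the numbers are not taken to pair the libraries. Over the named transcripts, loci and ratios, 973 comparisons with an alternative gave the same result, 60 lost a call, 10 gained one and 14 moved without a call. Depth is unknown, so a listed 0 cannot be given a limit.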

Other observations

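Transcript numbers within loci were not always complete. In 94 of the 451 loci the highest transcript number exceeded the count of listed transcripts, by 132 numbers in all, and 51 of the 380 loci with 1 listed transcript carried a number above 1. The transcripts of the missing numbers are not analysed here. Of tested loci with 1 listed transcript, 40 of 311 were called where its number was 1 (12.9%) and 2 of 30 where it was higher (6.67%), beside 14.4% of all features of that fit.

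Assembled transcripts at 100 TPM or more in a library and at 0 in the other 5 numbered 8, 2 and 6 in dChr libraries 1, 2 and 3, and 11, 7 and 3 in control libraries 1, 2 and 3.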
